A study of Mus musculus with 10 samples.

Results

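Type 1 conventional dendritic cells (cDC1s) sorted from the spleens of Zeb2 Id2 DKO mice were set against those of Nfil3 Zeb2 DKO mice, 4 of the 10 arrays of the series. The members are the arrays titled with these genotypes, 2 for Zeb2 Id2 DKO and 2 for Nfil3 Zeb2 DKO. Both groups lack Zeb2 by their labels, and they differ in whether Id2 or Nfil3 is the other gene deleted. The remaining arrays were 3 from Zeb2 KO mice and 3 from WT mice, which entered the estimate of the spread and place the DKO values. The alleles and the Cre driver, the age of the mice, the number of animals behind an array and the gate of the sort are not given in the sources used here. The platform was the Affymetrix Mouse Gene 1.0 ST array, and levels are given as log2 of the deposited RMA intensity, so that a difference of 1 is a 2-fold change.

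Id2 is a helix-loop-helix protein without a DNA-binding domain. It holds E proteins such as Tcf4 away from E-box DNA, and mice without it are known for a loss of cDC1s. Nfil3 is a basic leucine zipper repressor that is likewise needed for cDC1 development, and Zeb2 is a zinc-finger repressor that acts against Id2 in the shared progenitor of cDC1s and plasmacytoid dendritic cells (pDCs). The comparison asks what distinguishes the cDC1s found when Id2 rather than Nfil3 is missing on a Zeb2-deleted background.

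The targeted genes followed the labels for Id2 and Nfil3. Id2 measured 5.01 and 4.98 in Zeb2 Id2 DKO, against 10.50 and 10.40 in Nfil3 Zeb2 DKO, with means of 10.09 in Zeb2 KO and 10.30 in WT. It was 43.9-fold lower in Zeb2 Id2 DKO (log2 fold change -5.46, 95% confidence interval (CI) -5.75 to -5.16, limma adjusted p = 1.28e-08). Nfil3 measured 10.21 and 10.28 in Zeb2 Id2 DKO, against 6.20 and 7.09 in Nfil3 Zeb2 DKO (SD 0.629, n = 2). It was 12.2-fold higher in Zeb2 Id2 DKO (log2 fold change 3.61, CI 2.96 to 4.25, adjusted p = 0.000403). In neither case did the groups overlap, and the DKO group that kept the gene lay close to Zeb2 KO and WT. Zeb2 itself measured 6.78 and 6.82 in Zeb2 Id2 DKO, against 6.46 and 6.24 in Nfil3 Zeb2 DKO, and averaged 5.92 in Zeb2 KO and 6.08 in WT. Its difference did not pass the test (0.45, CI -0.08 to 0.98, adjusted p = 0.528). Both DKO means lay above the WT mean and the Zeb2 KO mean just below it, so this probe set gives no check of the Zeb2 labels.

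**Figure D1:**
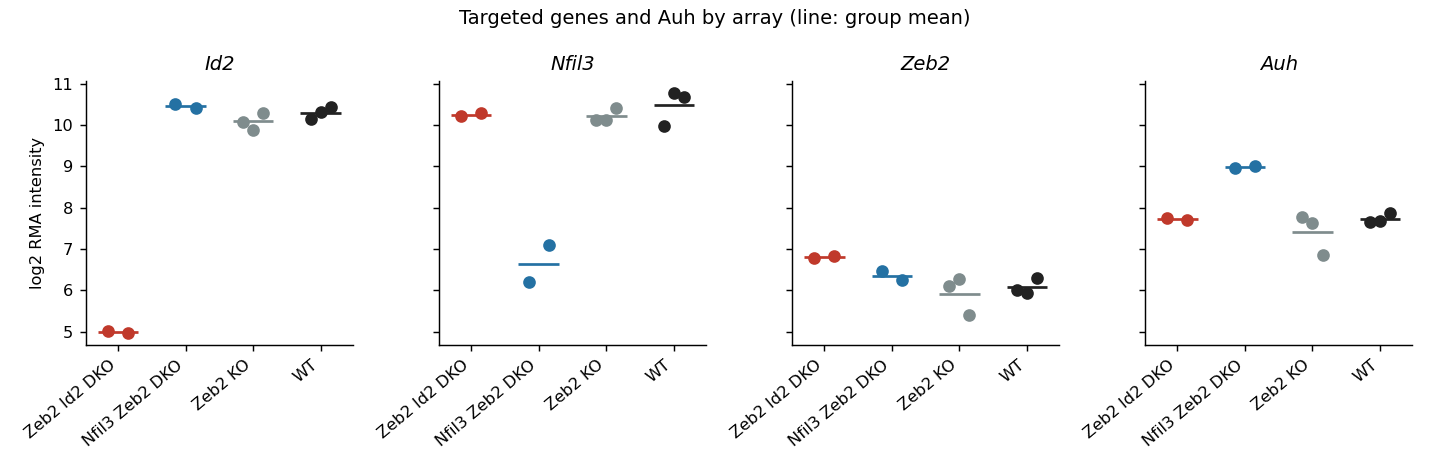
Log2 RMA intensity (vertical axis) of Id2, Nfil3, Zeb2 and Auh in each array, by genotype, with a point per array and a line at the group mean. Id2 sat near 5 only in Zeb2 Id2 DKO, Nfil3 was lowest in Nfil3 Zeb2 DKO, Zeb2 was higher in both DKO groups than in WT and slightly lower in Zeb2 KO, and Auh was highest in Nfil3 Zeb2 DKO.

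Of 33 cDC1 identity genes measured, 3 passed, which are described further on, 8 were higher and 6 lower at an unadjusted p under 0.05, and the differences ran from -1.44 to 1.18. Xcr1 and Clec9a of this list did not pass, and neither did the factors Irf8 and Batf3, which it does not hold. Cadm1, also used to mark cDC1s, was among the 3 that passed. Irf8, the transcription factor that cDC1s depend on, measured 12.59 and 12.63 in Zeb2 Id2 DKO, against 12.42 and 12.49 in Nfil3 Zeb2 DKO. Its difference was 0.15 (CI -0.04 to 0.35, adjusted p = 0.582). Xcr1, the chemokine receptor that marks the lineage, measured 11.36 and 11.47 in Zeb2 Id2 DKO, against 11.54 and 11.61 in Nfil3 Zeb2 DKO, a difference of -0.16 (CI -0.44 to 0.12). For Clec9a, the receptor for exposed actin of dead cells, the difference was 0.03 (CI -0.19 to 0.25), and for Batf3, the partner of Irf8, it was -0.18 (CI -0.49 to 0.14). None of the 4 passed, and the widest of these intervals reached 0.49 below 0.

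Of 19938 genes tested, 158 (0.792%) passed an adjusted p of 0.05, 116 higher (0.582%) and 42 lower (0.211%) in Zeb2 Id2 DKO. At least 2-fold differences were seen for 56 of the higher and 17 of the lower genes. All 158 had arrays that did not overlap between the groups, as did 52.4% of all genes tested. An unadjusted p under 0.05 was reached by 2292 genes. The count rested on every DKO array: it was 46 without Zeb2 Id2 DKO replicate 1, 50 without its replicate 2, 23 without Nfil3 Zeb2 DKO replicate 1, 70 without its replicate 2, and 704 without Zeb2 KO replicate 3. The labels do not say that replicates came from separate animals, so the p-values reflect array-to-array spread, which may be technical.

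With any single array of the 10 left out, 22 genes passed each time. The 14 higher in Zeb2 Id2 DKO were Nfil3, Carmil1, Adgrl2, Lrrc4c, Ank1, Slfn1, Ifit1, Ifit2, Ifit3, Oasl1, Oasl2, Isg20, Csta2 and Pmepa1. The 8 lower were Id2, Cpne8, Adam22, Arhgap42, Frmd4b, Smad3, Zfyve9 and Btbd3. Csta2, Pmepa1 and Btbd3 are named here for this outcome alone, after their values were seen.

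**Figure D2:**
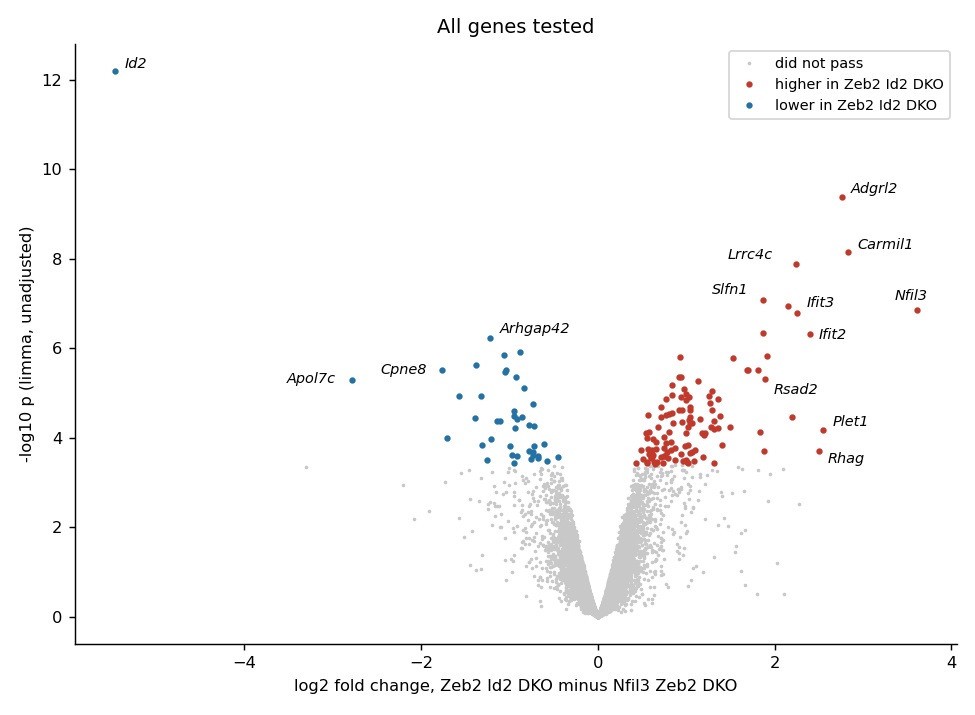
Log2 fold change of Zeb2 Id2 DKO over Nfil3 Zeb2 DKO (horizontal axis) against -log10 of the unadjusted limma p (vertical axis), with a point per gene tested. Red points are the 116 genes that passed as higher, blue points the 42 that passed as lower in Zeb2 Id2 DKO; Id2 and Nfil3 lie at the ends of the horizontal axis.

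Beyond the targeted gene, the largest rise was that of Carmil1, a regulator of actin capping. Carmil1 measured 10.21 and 10.39 in Zeb2 Id2 DKO, against 7.58 and 7.34 in Nfil3 Zeb2 DKO, and averaged 6.87 in Zeb2 KO and 7.53 in WT. It was 7.14-fold higher (2.84, CI 2.46 to 3.21, adjusted p = 4.79e-05), and both Zeb2 Id2 DKO arrays stood apart from all others. Adgrl2, the adhesion receptor latrophilin 2, measured 8.91 and 8.84 in Zeb2 Id2 DKO, against 6.14 and 6.09 in Nfil3 Zeb2 DKO, a 6.79-fold difference (2.76, CI 2.49 to 3.04, adjusted p = 4.11e-06). All 8 probe sets of Adgrl2 were higher in Zeb2 Id2 DKO, by between 0.26 and 2.76. Lrrc4c, an adhesion molecule of synapses that binds netrin-G1, measured 6.13 and 5.68 in Zeb2 Id2 DKO, against 3.76 and 3.56 in Nfil3 Zeb2 DKO (2.24, adjusted p = 6.61e-05). In the list of latrophilins and their ligands, 2 of 15 measured genes rose and 1 fell, against 0.582% and 0.211% of all genes tested. The one that fell was Adgrl3, latrophilin 3, at 5.31 and 5.33 in Zeb2 Id2 DKO, against 6.57 and 6.85 in Nfil3 Zeb2 DKO (-1.39, adjusted p = 0.0114). The call of Adgrl3 was lost without any one of the 4 DKO arrays.

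Plet1, a surface protein of progenitor epithelia and some dendritic cells, measured 9.99 and 8.45 in Zeb2 Id2 DKO, against 6.75 and 6.59 in Nfil3 Zeb2 DKO. The Zeb2 Id2 DKO arrays differed from each other by more than 1, yet both exceeded the rest (2.55, CI 1.66 to 3.44, adjusted p = 0.0162). Fgfr1, a fibroblast growth factor receptor, measured 10.19 and 9.41 in Zeb2 Id2 DKO, against 7.43 and 7.76 in Nfil3 Zeb2 DKO (2.20, adjusted p = 0.0111). Ank1, the ankyrin of red cell membranes, measured 9.23 and 8.82 in Zeb2 Id2 DKO, against 6.72 and 7.04 in Nfil3 Zeb2 DKO (2.15, adjusted p = 0.000375). Slfn1, a Schlafen family member, measured 8.43 and 8.84 in Zeb2 Id2 DKO, against 6.79 and 6.75 in Nfil3 Zeb2 DKO (1.86, adjusted p = 0.000326). All 8 measured Schlafen genes had positive differences (median 0.49, from 0.28 to 0.70 over the alternatives, against -0.03 over all genes), with Slfn1 the one that passed. Over all genes tested, 43.0% were positive and 0.582% passed as higher. Slfn5 had a difference of 1.63 (adjusted p = 0.0557). The claudin Cldn13 (1.89, adjusted p = 0.0335) and Rhag (2.50, adjusted p = 0.0335) completed the larger rises outside the interferon-stimulated genes. The calls of Plet1 and Fgfr1 were lost in 3 of the 10 fits that left out an array, that of Cldn13 in 4 and that of Rhag in 6.

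Apol7c, an apolipoprotein L protein of dendritic cells, fell most after Id2. It measured 7.75 and 8.98 in Zeb2 Id2 DKO, against 11.19 and 11.11 in Nfil3 Zeb2 DKO, and averaged 10.37 in Zeb2 KO and 11.14 in WT. It was 6.87-fold lower (-2.78, CI -3.51 to -2.06, adjusted p = 0.00362), and the call was lost without Nfil3 Zeb2 DKO replicate 1. The other 5 apolipoprotein L genes measured, Apol6, Apol7a, Apol8, Apol10a and Apol10b, did not pass, with differences between -0.30 and 0.02. Cpne8, a calcium-dependent membrane-binding copine, measured 5.39 and 5.53 in Zeb2 Id2 DKO, against 7.13 and 7.32 in Nfil3 Zeb2 DKO (-1.77, adjusted p = 0.00284). Adam22, a membrane protein of the disintegrin family, measured 6.78 and 6.57 in Zeb2 Id2 DKO, against 8.02 and 8.08 in Nfil3 Zeb2 DKO (-1.37, adjusted p = 0.00284). H2-M2, a class I-like histocompatibility gene, measured 6.49 and 6.53 in Zeb2 Id2 DKO, against 8.38 and 8.04 in Nfil3 Zeb2 DKO (-1.70, adjusted p = 0.0215). Arhgap42, a GTPase-activating protein, fell by 1.21 on the log2 scale (adjusted p = 0.00108), and the scaffold gene Frmd4b by 1.06 (adjusted p = 0.00205). Ccl2, a monocyte-attracting chemokine, fell by 1.14 (adjusted p = 0.0123), and Ocstamp, a fusion protein of osteoclasts, by 1.11 (adjusted p = 0.0123). The call of H2-M2 was lost in 4 of the 10 fits that left out an array, and those of Ccl2 and Ocstamp in 3 each.

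In the list of TGF-beta and SMAD genes, 2 of 17 fell and none rose, against 0.211% and 0.582% of all genes tested. Smad3, which carries the receptor signal to the nucleus, measured 7.13 and 6.90 in Zeb2 Id2 DKO, against 8.01 and 8.11 in Nfil3 Zeb2 DKO (-1.05, adjusted p = 0.00288). Zfyve9, the anchor that presents SMAD proteins to the receptor, measured 5.38 and 5.43 in Zeb2 Id2 DKO, against 6.34 and 6.54 in Nfil3 Zeb2 DKO (-1.04, adjusted p = 0.00284). Both passed with any array left out. The list's median difference was -0.11, and the receptors Tgfbr1 (-0.49, adjusted p = 0.111) and Tgfbr2 (-0.11) did not pass.

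**Figure D3:**
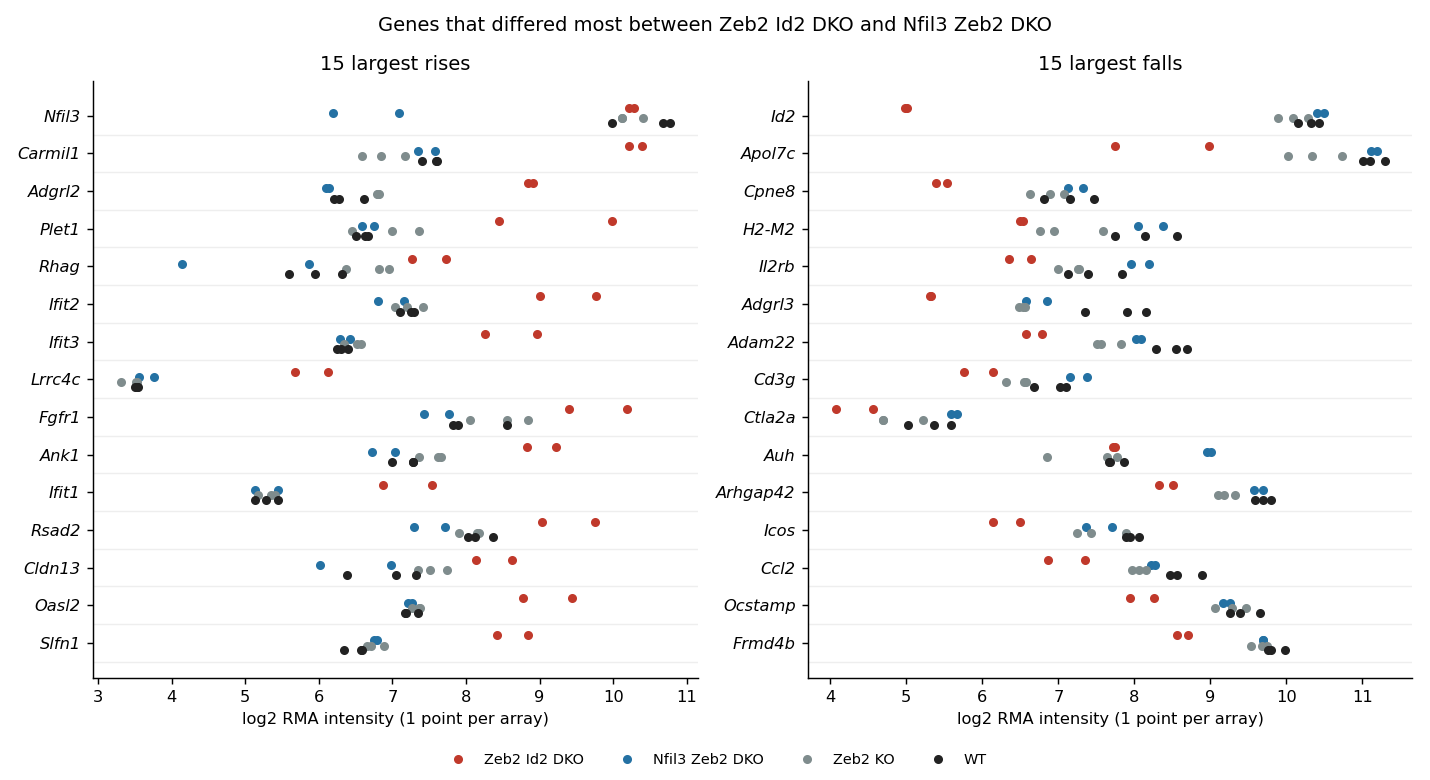
Log2 RMA intensity (horizontal axis, a point per array) of the 15 genes with the largest rises (left) and the 15 with the largest falls (right) in Zeb2 Id2 DKO relative to Nfil3 Zeb2 DKO, coloured by genotype, with Zeb2 KO and WT for placement. For Carmil1, Adgrl2 and Lrrc4c the Zeb2 Id2 DKO arrays stood above every other array; for Auh the Nfil3 Zeb2 DKO arrays stood above every other array.

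The most numerous named group was that of the interferon-stimulated genes, which cells induce through the receptor for type I interferon and factors such as Stat2 and Irf9. Of 34 measured, 16 rose in Zeb2 Id2 DKO, 11 of them by at least 2-fold, and none fell. Over all genes tested, 0.582% rose. Their median difference was 0.98, against -0.03 over all genes, and 31 of the 34 were positive, against 43.0% of all genes tested. Averaged over the list, the log2 level was 8.57 and 8.96 in Zeb2 Id2 DKO, against 7.71 and 7.82 in Nfil3 Zeb2 DKO. It spanned 7.80 to 8.04 in Zeb2 KO and 7.82 to 7.89 in WT, so Zeb2 Id2 DKO stood above all other arrays and Nfil3 Zeb2 DKO at or just below them.

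Regulatory sequence of 3 of the risen interferon-stimulated genes and of Apol7c is shown because their promoters hold the core of the interferon-stimulated response element, to which interferon-activated factors bind. Each is a 100-base window of the promoter from RefSeq on GRCm38.p6, written 5′ to 3′ on the gene's strand: chr19:34583345-34583444 (plus strand) for Ifit3, chr19:34640749-34640848 (plus strand) for Ifit1, chr12:26456518-26456617 (minus strand) for Rsad2 and chr15:77533316-77533415 (minus strand) for Apol7c. Capitals mark matches to GAAANNGAAA on either strand, which read TTTCNNTTTC on the strand shown.
Ifit3: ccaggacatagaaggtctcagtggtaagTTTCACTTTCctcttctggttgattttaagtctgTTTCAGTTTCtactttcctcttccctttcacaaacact
Ifit1: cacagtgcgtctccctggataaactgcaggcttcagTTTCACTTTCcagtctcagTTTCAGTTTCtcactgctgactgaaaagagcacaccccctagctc
Rsad2: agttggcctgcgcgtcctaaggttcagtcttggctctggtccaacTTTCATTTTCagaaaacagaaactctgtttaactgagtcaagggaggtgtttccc
Apol7c: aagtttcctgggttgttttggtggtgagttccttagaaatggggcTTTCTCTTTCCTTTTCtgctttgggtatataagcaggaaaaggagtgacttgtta
Ifit3 and Ifit1 each hold 2 separate matches, Rsad2 holds 1, and the 2 matches of Apol7c overlap. The motif was present in the 250 bases upstream of the start in 2.98% of all 32851 promoters, in 11.4% (15 of 132) of the promoters of genes that rose and in 4.26% (2 of 47) of those of genes that fell. Among the risen interferon-stimulated genes it was present in 33.3% (5 of 15 promoters), those of Ifit1, Ifit3, Oas3, Rsad2 and Stat2, and over all members of the list, risen or not, in 30.0% (9 of 30). A match describes these letters and is not a measured binding site.

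The IFIT genes, whose proteins bind foreign RNA, showed the largest rises of the list. Ifit2 measured 9.0 and 9.76 in Zeb2 Id2 DKO, against 6.80 and 7.16 in Nfil3 Zeb2 DKO, and averaged 7.22 in both Zeb2 KO and WT. It was 5.28-fold higher (2.40, CI 1.91 to 2.89, adjusted p = 0.000942). Ifit3, whose motif matches are printed above, measured 8.26 and 8.97 in Zeb2 Id2 DKO, against 6.43 and 6.29 in Nfil3 Zeb2 DKO (2.26, adjusted p = 0.000403). Ifit1 measured 6.87 and 7.53 in Zeb2 Id2 DKO, against 5.13 and 5.45 in Nfil3 Zeb2 DKO (1.91, adjusted p = 0.00205). In each of these genes replicate 2 of Zeb2 Id2 DKO was the higher one and no array of another genotype reached either.

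Genes of the oligoadenylate synthetase family, which sense double-stranded RNA, rose as well. Oasl2 measured 8.78 and 9.44 in Zeb2 Id2 DKO, against 7.21 and 7.26 in Nfil3 Zeb2 DKO (1.87, adjusted p = 0.000942). Oasl1 differed by 1.52, Oas3 by 1.26 and Oas2 by 1.05 (adjusted p between 0.00205 and 0.00896). Rsad2, the antiviral enzyme viperin, measured 9.03 and 9.76 in Zeb2 Id2 DKO, against 7.30 and 7.71 in Nfil3 Zeb2 DKO (1.89, adjusted p = 0.00362). Its neighbour Cmpk2, a mitochondrial nucleotide kinase, measured 7.67 and 8.14 in Zeb2 Id2 DKO, against 6.01 and 6.42 in Nfil3 Zeb2 DKO (1.69, adjusted p = 0.00284). Rsad2 and Cmpk2 lie 2 and 3 places from Id2 in the order of tested genes on chromosome 12, while Rnf144a, which lies between them and Id2, differed by 0.00. The exonuclease Isg20 rose by 1.70, and the regulators Irf7 (1.32, adjusted p = 0.0480), Stat2 (0.97, adjusted p = 0.00507), Dhx58 (0.96, adjusted p = 0.0125) and Usp18 (1.0, adjusted p = 0.0444) passed too. Of the 10 fits that left out an array, the call was lost in 8 for Irf7, in 7 for Usp18 and in 3 each for Stat2 and Dhx58; it was also lost with median centring and with trend moderation for Irf7, and with quantile normalization and the replicate block on all 10 arrays for Usp18.

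Members that did not pass included Mx1 (0.94, adjusted p = 0.195), Bst2 (0.87, adjusted p = 0.0967) and Irf9 (0.17, CI -0.03 to 0.36). None of the 15 genes listed for sensing interferon and its signal passed limma's test, 4 had an unadjusted p under 0.05, and their median difference was -0.04. Stat2, which passed, was counted with the interferon-stimulated genes and not among these 15. Ifnb1, the beta interferon itself, differed by -0.04 (CI -0.26 to 0.19). Of 8 interferon-inducible GTPases 1 rose, Irgm1 (0.96, adjusted p = 0.0446), and none rose without WT replicate 1 or 3, without Zeb2 KO replicate 1 or without any one of the 4 DKO arrays. Nor did any rise with quantile normalization, median centring or the replicate block on all 10 arrays. Over all genes tested 0.582% rose, and 3 of these GTPases were higher and 0 lower at an unadjusted p under 0.05. The number of interferon-stimulated genes that rose was 6 without Nfil3 Zeb2 DKO replicate 1, 9 without Zeb2 Id2 DKO replicate 2 and 25 without Zeb2 KO replicate 3.

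**Figure D4:**
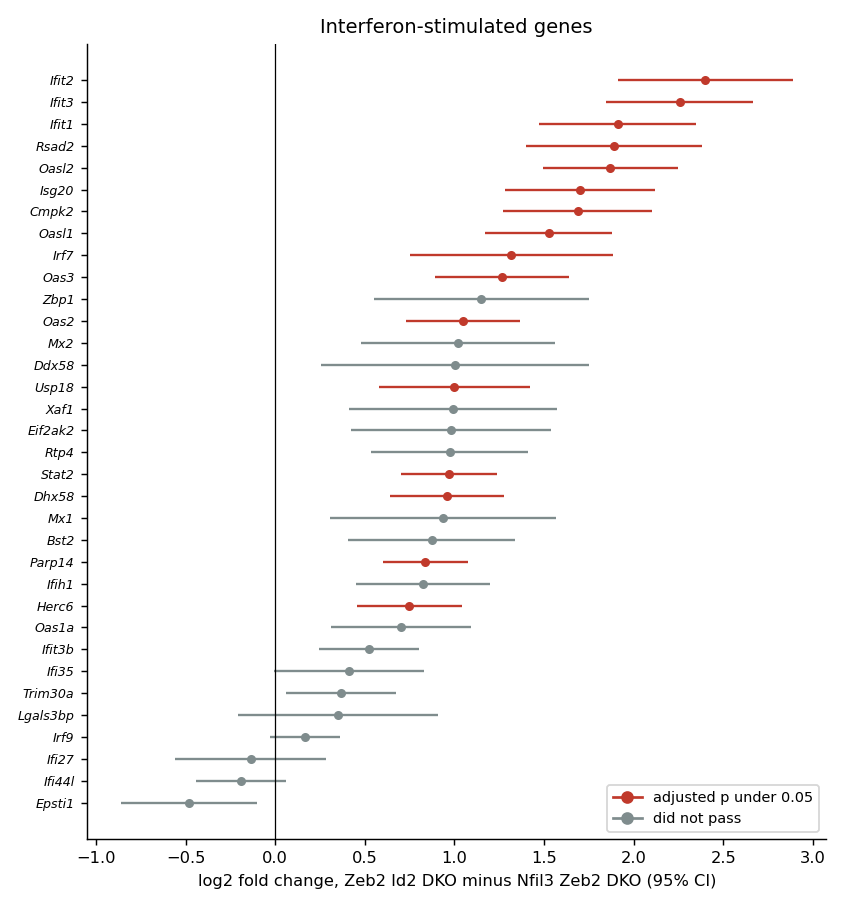
Log2 fold change of Zeb2 Id2 DKO over Nfil3 Zeb2 DKO (horizontal axis) for the 34 interferon-stimulated genes measured, with bars for the 95% confidence interval of the limma fit. The 16 genes in red passed, from Herc6 (0.75) to Ifit2 (2.40); Epsti1 (-0.48), Ifi44l (-0.19) and Ifi27 (-0.14) were the negative ones.

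Set against Zeb2 KO, the 2 deletions were unequal in the number of genes that passed. In Zeb2 Id2 DKO over Zeb2 KO, 99 genes passed (0.497%), 73 higher and 26 lower, and 1465 had an unadjusted p under 0.05. In Nfil3 Zeb2 DKO over Zeb2 KO, 1 gene passed limma's test (0.00502%), which was Nfil3 itself, although 1695 had an unadjusted p under 0.05. By the unadjusted count the order of the 2 deletions was thus the other way. These comparisons share the Zeb2 KO arrays, and the direct comparison of the DKO groups is the test of the difference between them. Without Zeb2 KO replicate 3, 148 genes passed for Zeb2 Id2 DKO and 106 for Nfil3 Zeb2 DKO; without Zeb2 Id2 DKO replicate 1 or 2, 25 and 33 genes passed for Zeb2 Id2 DKO. It was 53 without Zeb2 KO replicate 2, and for Nfil3 Zeb2 DKO the count was 4 without WT replicate 1 and 8 without its own replicate 2.

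Several of the genes described above differed from Zeb2 KO in Zeb2 Id2 DKO. Ifit2 differed from Zeb2 KO by 2.16 in Zeb2 Id2 DKO (adjusted p = 0.00128) and by -0.24 in Nfil3 Zeb2 DKO. Carmil1 differed by 3.43 in Zeb2 Id2 DKO (adjusted p = 4.09e-06) and by 0.59 in Nfil3 Zeb2 DKO. Smad3 differed by -1.0 in Zeb2 Id2 DKO (adjusted p = 0.00261) and by 0.05 in Nfil3 Zeb2 DKO. Adgrl2 differed from Zeb2 KO by 2.08 in Zeb2 Id2 DKO (adjusted p = 1.5e-05) and by -0.69 in Nfil3 Zeb2 DKO (adjusted p = 0.314), and Rhag by 0.79 in Zeb2 Id2 DKO and by -1.71 in Nfil3 Zeb2 DKO, neither of which passed.

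Over the 158 genes, the WT mean was nearer to Nfil3 Zeb2 DKO than to Zeb2 Id2 DKO in 148 (93.7%), against 56.1% of all genes tested. The Zeb2 KO mean was nearer to Nfil3 Zeb2 DKO in 119 (75.3%), against 48.4% of all genes. The share for Zeb2 KO fell to 48.2% of the genes that passed without Zeb2 KO replicate 3, and that for WT was between 80.0% and 98.0% over all arrays left out. In 8 genes both means were nearer to Zeb2 Id2 DKO, namely Nfil3, Nkapd1, Chp1, Hcfc2, Sde2, Mmp7, Cfap74 and Auh.

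Auh, an RNA-binding enzyme of leucine breakdown, is the gene next to Nfil3 in the order of tested genes on chromosome 13. It measured 7.74 and 7.71 in Zeb2 Id2 DKO, against 8.95 and 9.01 in Nfil3 Zeb2 DKO, and averaged 7.42 in Zeb2 KO and 7.74 in WT. The Nfil3 Zeb2 DKO arrays were above all others (-1.25, CI -1.78 to -0.73, adjusted p = 0.0431), a call lost in 7 of the 10 fits that left out an array. Against Zeb2 KO, Auh differed by 1.56 in Nfil3 Zeb2 DKO (adjusted p = 0.152) and by 0.31 in Zeb2 Id2 DKO. Of the other 9 genes within 5 places of Nfil3, Sema4d passed (0.78, adjusted p = 0.0109), although its second probe set differed by -0.05.

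Id2 is known to act by binding E proteins. Of the 6 E and ID protein genes measured besides Id2 itself, none passed limma's test and 1 had an unadjusted p under 0.05, Id3 (-0.47, CI -0.88 to -0.07, adjusted p = 0.343). The E proteins differed by 0.01 for Tcf4 (CI -0.28 to 0.29), 0.19 for Tcf3 (CI -0.10 to 0.47) and 0.14 for Tcf12 (CI -0.04 to 0.33). Searched on both strands, the E-box letters CAGCTG, which E proteins bind, were present in 15.9% of the promoters of risen genes, 8.51% of those of fallen genes and 4271 of the 32851 promoters in all, and CACCTG, which ZEB factors also bind, in 18.9%, 23.4% and 17.2%. Among 16 clock and PAR bZIP genes, the family of Nfil3's competitors, none passed and 3 had an unadjusted p under 0.05. The letters TTACGTAA or TTATGTAA, which Nfil3 binds, were in none of the 132 promoters of risen genes and in 1 of the 47 of fallen genes (2.13%). They were in 306 of all 32851 promoters (0.931%), so these counts are too few to compare.

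Among 29 pDC genes, 4 rose and none fell, against 0.582% and 0.211% of all genes tested. At an unadjusted p under 0.05, 9 were higher and 3 lower. Siglech, a surface lectin of pDCs, measured 8.07 and 7.90 in Zeb2 Id2 DKO, against 6.87 and 6.53 in Nfil3 Zeb2 DKO, and averaged 6.08 in Zeb2 KO and 6.31 in WT (1.28, adjusted p = 0.0149). Cd300c rose by 1.03 (adjusted p = 0.0472) and Upb1 by 0.58 (adjusted p = 0.0370), and the fourth was Irf7, which also stands in the interferon-stimulated list. The pDC list's median difference was 0.19, its members ran from -1.24 to 1.32, and Tcf4, the factor that defines pDCs, did not differ beyond its interval. Without WT replicate 1 or Zeb2 KO replicate 3, 1 pDC gene also fell, which the following count of risen genes leaves out. The pDC count was 0 when any one of the 4 DKO arrays was left out, 2 without WT replicate 1 or 2, 1 without WT replicate 3, 2 without Zeb2 KO replicate 2 and 7 without Zeb2 KO replicate 3.

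Of 33 cDC1 identity genes, 2 rose and 1 fell (median 0.04), against 0.582% and 0.211% of all genes tested. Septin3, a cytoskeletal GTPase, measured 10.59 and 10.62 in Zeb2 Id2 DKO, against 9.28 and 9.57 in Nfil3 Zeb2 DKO (1.18, adjusted p = 0.0176), and Fkbp1b, a calcium-channel partner, rose by 0.87 (adjusted p = 0.0311). Cadm1, an adhesion molecule used to mark cDC1s, measured 10.45 and 10.28 in Zeb2 Id2 DKO, against 11.04 and 11.14 in Nfil3 Zeb2 DKO (-0.73, adjusted p = 0.0146). Cd8a (-0.62, adjusted p = 0.0809) and the integrin Itgae (0.94, adjusted p = 0.0809) did not pass. None of these 3 calls held when any one of the 4 DKO arrays was left out, 1 gene rose without WT replicate 2 or 3, and 5 rose without Zeb2 KO replicate 3. None of the 26 core dendritic cell transcription factors passed limma's test, with 7 at an unadjusted p under 0.05. Of 23 genes of type 2 conventional dendritic cells 1 rose, Slfn1, against 0.582% of all genes tested, with a list median of -0.13. At an unadjusted p under 0.05, 6 of them were higher and 6 lower. Without Zeb2 KO replicate 3, 5 rose.

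Of 33 genes that rise as dendritic cells mature, 2 fell and none rose in Zeb2 Id2 DKO, against 0.211% and 0.582% of all genes tested. The list's median was -0.28 (from -0.30 to -0.15 over the alternatives). In it 7 genes were positive and 26 negative, against 43.0% positive over all genes. At an unadjusted p under 0.05, 10 were lower and 0 higher. Averaged over the list, the log2 level was 8.03 and 8.12 in Zeb2 Id2 DKO, against 8.59 and 8.34 in Nfil3 Zeb2 DKO. It was 8.04, 8.14 and 8.44 in Zeb2 KO and 8.53 to 8.63 in WT. The median difference from Zeb2 KO was -0.06 in Zeb2 Id2 DKO and 0.20 in Nfil3 Zeb2 DKO. The 2 that fell were Apol7c and Il12b, the shared subunit of interleukins 12 and 23. Il12b measured 10.08 and 10.01 in Zeb2 Id2 DKO, against 11.30 and 10.73 in Nfil3 Zeb2 DKO, and averaged 10.01 in Zeb2 KO and 11.10 in WT (-0.97, adjusted p = 0.0385). Zeb2 Id2 DKO thus matched Zeb2 KO for Il12b, and the call was lost in 7 of 10 fits that left out an array. Ccr7, which guides mature cells to lymph nodes, differed by -0.89 (adjusted p = 0.113) and Tnfrsf4 by -1.14 (adjusted p = 0.133). Without Zeb2 KO replicate 3, 9 genes of this list fell and 1 rose; without Nfil3 Zeb2 DKO replicate 1, none passed, and the fits without one of WT replicates 1 to 3, Zeb2 KO replicate 2 or Zeb2 Id2 DKO replicate 1 or 2 left 1 that fell. Antigen presentation genes did not pass: limma called none of 20 for class I, where 1 had an unadjusted p under 0.05, and none of 14 for class II, where 2 did.

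Markers of other spleen cells differed as well. In bulk samples fewer cells of a type and less RNA per cell cannot be told apart. Of 11 erythroid genes 4 rose, against 0.582% of all genes tested. All 11 were positive, against 43.0% of all genes, and the median was 1.13. Rhag, the Rh-associated glycoprotein, measured 7.73 and 7.27 in Zeb2 Id2 DKO, against 4.14 and 5.86 in Nfil3 Zeb2 DKO. The others were Epb42 (1.40), Car2 (1.29) and Hemgn (1.0). The erythroid list averaged 7.80 and 7.61 in Zeb2 Id2 DKO, against 6.11 and 6.85 in Nfil3 Zeb2 DKO, 7.12 to 7.32 in Zeb2 KO and 6.60 to 7.06 in WT. Its summed linear intensity was 3042 to 3606 in Zeb2 Id2 DKO, against 871 to 1644 in Nfil3 Zeb2 DKO. Nfil3 Zeb2 DKO replicate 1 was the lowest array of all, and no erythroid gene passed without it or without either Zeb2 Id2 DKO array, while 6 passed without Nfil3 Zeb2 DKO replicate 2 and 7 without Zeb2 KO replicate 3.

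Of 21 neutrophil genes none passed limma's test, although 11 had an unadjusted p under 0.05, all higher. Their median was 0.92, and it ran from 0.31 to 1.53 over the alternatives tried. Mpo, the granule peroxidase, measured 9.16 and 9.58 in Zeb2 Id2 DKO, against 6.70 and 7.84 in Nfil3 Zeb2 DKO (2.10, adjusted p = 0.0550). The neutrophil list summed to 9722 to 20188 in Zeb2 Id2 DKO, against 5463 to 7832 in Nfil3 Zeb2 DKO, while Zeb2 KO lay between 10782 and 21127 and WT between 5270 and 5371. The T cell list moved the other way, with 3 of 16 lower, 1 higher and a median of -0.45. Over all genes tested, 0.211% passed as lower and 0.582% as higher. Cd3g, a chain of the T cell receptor complex, measured 5.76 and 6.15 in Zeb2 Id2 DKO, against 7.38 and 7.16 in Nfil3 Zeb2 DKO (-1.32, adjusted p = 0.00618). Cd3d fell by 0.91 (adjusted p = 0.0120), the costimulatory receptor Icos by 1.21 (adjusted p = 0.0223), and Cd6 rose by 0.95 (adjusted p = 0.0379). At an unadjusted p under 0.05, 10 T cell genes were lower and 1 higher. The T cell list summed to 1772 to 1886 in Zeb2 Id2 DKO, against 2107 to 2316 in Nfil3 Zeb2 DKO, 1679 to 1953 in Zeb2 KO and 1875 to 2093 in WT. By this sum Zeb2 Id2 DKO lay within the range of Zeb2 KO, and both Nfil3 Zeb2 DKO arrays lay above all others. The number that fell was 0 without Nfil3 Zeb2 DKO replicate 1 or Zeb2 Id2 DKO replicate 1, 1 without Nfil3 Zeb2 DKO replicate 2 and 8 without Zeb2 KO replicate 3.

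Of 15 natural killer cell genes 1 fell, against 0.211% of all genes tested, and 6 were lower and 0 higher at an unadjusted p under 0.05. The one that fell was Il2rb, a chain of the interleukin 2 and 15 receptors, at 6.64 and 6.36 in Zeb2 Id2 DKO, against 8.19 and 7.95 in Nfil3 Zeb2 DKO (-1.57, adjusted p = 0.00618). The call of Il2rb was lost without Nfil3 Zeb2 DKO replicate 1 or Zeb2 Id2 DKO replicate 2. Ncr1, the receptor that defines natural killer cells, differed by -0.94 (adjusted p = 0.0783). The natural killer list summed to 1566 to 1622 in Zeb2 Id2 DKO, against 1597 to 1709 in Nfil3 Zeb2 DKO. Of 20 monocyte genes 1 rose, Pglyrp1 (1.19, adjusted p = 0.0395), against 0.582% of all genes tested. In that list 6 were higher and 0 lower at an unadjusted p under 0.05. The call of Pglyrp1 was lost without any one DKO or WT array. None of 17 B cell or 24 red pulp macrophage genes passed limma's test, with 1 and 6 at an unadjusted p under 0.05. The part of these other cells in the differences described above was not tested.

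**Figure D5:**
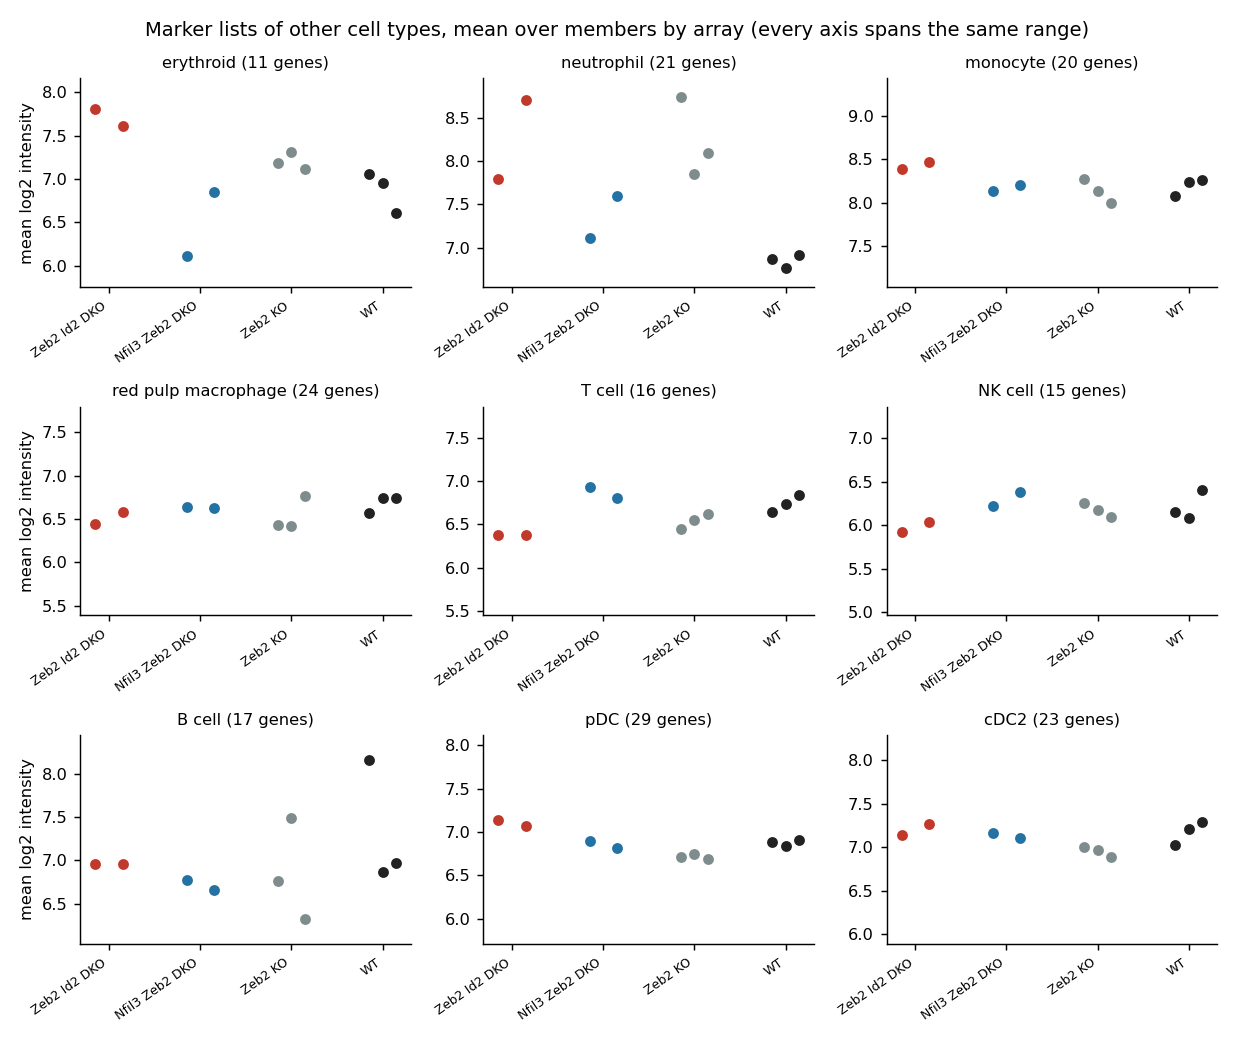
Mean log2 RMA intensity (vertical axis, every panel spanning the same range) over the measured members of 9 marker lists, with a point per array and genotypes from left to right. The erythroid list was higher in both Zeb2 Id2 DKO arrays (7.80 and 7.61) than in both Nfil3 Zeb2 DKO arrays (6.11 and 6.85), and the T cell list was lower (6.38 and 6.37, against 6.94 and 6.80).

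Within each DKO group the arrays correlated at 0.997 across genes, and a Zeb2 Id2 DKO array correlated with a Nfil3 Zeb2 DKO array at 0.990 to 0.992. Genes are not independent replicates. Array medians were 77.4 to 79.0 intensity units in Zeb2 Id2 DKO, against 80.9 to 81.6 in Nfil3 Zeb2 DKO.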

How the data were processed

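Per the labels, spleen tissue went through collagenase B with DNase I and red cell lysis, and RNA was column-purified and amplified with the NuGen Ovation PicoSL kit. The deposited values are linear intensities, made by the authors with RMA in Affymetrix Expression Console per the submitters' processing notes. The annotation and genome build they used are not given in the sources used here. Of 28853 probe sets, 21789 named 1 gene, 1621 several and 5443 none. The probe set with the highest mean stood for a gene (999 genes had several), which left 19938 genes.

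Log2 intensities of all 10 arrays entered 1 limma fit (3.58.1, R 4.3.3) with a mean for each genotype, so the groups share an estimate of the spread (6 residual degrees of freedom). P-values were adjusted by Benjamini-Hochberg over all genes, and genes with an adjusted p under 0.05 were called. The number of arrays limits the precision, and the median 95% confidence interval reached 0.264 either side of a log2 difference. The script was tested on simulated data.

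Genes named are the targeted genes, members of 34 gene lists, and, among called genes without overlap, the 15 that rose most and the 15 that fell most, leaving out predicted genes, small RNAs, receptor segments and sex-linked genes. The comparison and the lists were chosen with earlier results of these data known. Replicate numbers are in the labels, and same-numbered DKO arrays did not deviate together (correlation of deviations 0.0187), so numbers were not taken as pairs. With 2 arrays in each DKO group, this value must be the same for both numbers. Alternatives were the 4 DKO arrays alone, a replicate block, quantile normalization, median centring, trend with robust moderation, array weights, the mean of probe sets, a filter on level, a 2-fold minimum and each array left out. Promoter sequences are those of RefSeq for GRCm38.p6. No array was left out of the analysis, and probe sets that name several genes or none were not used here.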

Additional observations from a re-analysis of the deposited data

How the results depend on the processing

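The 158 called genes were 833 (523 higher, 310 lower) with only the 4 DKO arrays, 1139 (718 higher, 421 lower) with array weights and 73 (56 higher, 17 lower) at 2-fold or more. With a replicate block they were 1123 (676 higher, 447 lower) on the 4 DKO arrays and 182 on all 10; same-numbered arrays showed no pairing between the DKO groups (correlation 0.0187), and over the other pairs of groups the correlations ran from -0.312 to 0.162. Leaving out arrays gave 23 to 958 (14 to 590 higher, 9 to 368 lower). The 958 came from leaving out WT replicate 1 and Zeb2 KO replicate 3 together, which was chosen after seeing the data. That fit also gave 245 genes for Zeb2 Id2 DKO over Zeb2 KO and 266 for Nfil3 Zeb2 DKO over Zeb2 KO. The order of these 2 counts was there the reverse of the main fit. All 158 were also called with only the 4 DKO arrays, with the block on them and with array weights. They were called too without Zeb2 KO replicate 3 and without that pair. No called gene changed sign under any alternative. As the 2 and 2 arrays did not overlap in any called gene, leaving out arrays could not have turned a sign. For Zeb2 Id2 DKO over Zeb2 KO the count was 256 with array weights, 43 at 2-fold and 25 to 245 with arrays left out; for Nfil3 Zeb2 DKO over Zeb2 KO it was 4 with array weights and 1 to 266 with arrays left out. The share of called genes with Zeb2 KO nearer to Nfil3 Zeb2 DKO was 55.6% with array weights, 83.6% at 2-fold and 46.0% to 95.7% with arrays left out, and that for WT was 79.8% with array weights and 80.0% to 98.0% with arrays left out. Uncalled differences near 0 turned sign for Tcf4 (-0.0676 with quantile normalization, -0.0416 to 0.0588 with arrays left out) and Clec9a (-0.0152 to 0.0721 with arrays left out). Leaving out a DKO array leaves 1 in that group, assumed to vary like the others. The cause of these moves was not tested.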

Other observations

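Outside the lists used above, 2 further genes that rose in Zeb2 Id2 DKO are named after their values were seen. Ifitm2, which restricts viral entry, measured 10.77 and 10.58 in Zeb2 Id2 DKO, against 9.47 and 9.80 in Nfil3 Zeb2 DKO (1.04, limma adjusted p = 0.0111). Ifi203, a nuclear protein of the interferon-inducible p200 family, measured 8.97 and 9.62 in Zeb2 Id2 DKO, against 7.99 and 8.17 in Nfil3 Zeb2 DKO (1.22, limma adjusted p = 0.0176). The groups did not overlap in either gene, and each call was lost in 3 of the 10 fits that left out an array.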
